A study of Mus musculus with 20 samples.

Results

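Fatty acid synthesis was followed through 10 genes, Fasn, Acaca, Acly, Scd1, Scd2, Elovl5, Elovl6, Me1, Srebf1 and Thrsp, of the 45706 genes counted in 20 mouse samples. The genes were chosen by name as the enzymes that make, elongate and desaturate fatty acids, with a regulator and a cofactor of the pathway. Earlier results of these data were known when they were chosen, so the number that changed is a description and not an independent test. All 10 identifiers were found in every count file. The study compared tumors and tumor cells with and without cathepsin D, a protease of the lysosome, by RNA sequencing.

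The tumors came from mice of the C57BL/6N background, 18 weeks of age, that all carried the PyMT oncogene under the MMTV promoter, which is active in mammary epithelium. In 4 MMTV-cre;Ctsd-/- mice the floxed Ctsd alleles were deleted by a Cre that the same promoter drives, so that stromal cells kept the gene. The 4 control mice kept functional Ctsd alleles. The cells were spontaneously immortalized lines from end-stage PyMT tumors, with 1 mouse as the source of the Ctsd+/+ line and 1 of the Ctsd-/- line. They were cultured in DMEM/F12 medium with 1% fetal calf serum (FCS) for 10 days (1% FCS) or for 12 weeks (1% FCS LT), with 3 samples in each of the 4 groups. The samples of a group came from independent experiments. Since each genotype is 1 line, genotype and cell line cannot be told apart.

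Mammalian cells build palmitate in the cytosol from citrate that leaves the mitochondrion. ATP citrate lyase (Acly) splits the citrate into acetyl-CoA, acetyl-CoA carboxylase (Acaca) turns this into malonyl-CoA, and fatty acid synthase (Fasn) joins the units with the reducing power of NADPH, part of which malic enzyme (Me1) supplies. Elovl6 and Elovl5 are elongases, Scd1 and Scd2 are stearoyl-CoA desaturases that introduce a double bond, Srebf1 encodes the transcription factor SREBP1, and Thrsp (Spot 14) is a small protein of fat-making tissues. Adipocytes, the lactating mammary epithelium and many tumors use this pathway.

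Of the 10 genes, 8 have an entry in the RefSeq promoter table of GRCm38.p6, with 11 windows in all. The 250 bases before the transcription start are shown for Fasn and Acly, whose transcripts passed the test in tumors, and for Elovl5, which did not pass the test there. Each sequence runs 5′ to 3′ in the direction of transcription. Capitals mark matches on either strand to CCAAT (the NF-Y box), GGGCGG (the Sp1 box), CACGTG (the E-box) or TCACNCCAC (a core of the sterol regulatory element), and where 2 matches overlap they form 1 run of capitals. Gene spans are those of GENCODE M21, and windows those of the RefSeq starts. Fasn lies on the minus strand of chr11:120805846-120824547, and its window is chr11:120824548-120824797. Acly lies on the minus strand of chr11:100476353-100528000, with the window chr11:100528001-100528250. Elovl5 lies on the plus strand of chr9:77917364-77984519, with the window chr9:77917115-77917364.
Fasn: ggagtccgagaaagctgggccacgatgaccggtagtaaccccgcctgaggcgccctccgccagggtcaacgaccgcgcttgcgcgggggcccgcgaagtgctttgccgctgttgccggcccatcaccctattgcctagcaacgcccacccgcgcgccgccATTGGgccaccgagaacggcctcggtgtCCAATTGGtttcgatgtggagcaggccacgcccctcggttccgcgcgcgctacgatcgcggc
Acly: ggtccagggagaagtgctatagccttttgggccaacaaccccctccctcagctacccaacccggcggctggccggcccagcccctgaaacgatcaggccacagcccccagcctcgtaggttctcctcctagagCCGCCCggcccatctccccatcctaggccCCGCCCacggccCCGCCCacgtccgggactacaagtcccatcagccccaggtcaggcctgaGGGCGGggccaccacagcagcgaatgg
Elovl5: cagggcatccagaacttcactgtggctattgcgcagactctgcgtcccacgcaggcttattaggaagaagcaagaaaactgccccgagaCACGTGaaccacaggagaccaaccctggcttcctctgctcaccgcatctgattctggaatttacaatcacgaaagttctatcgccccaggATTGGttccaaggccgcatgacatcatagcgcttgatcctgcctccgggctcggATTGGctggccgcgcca
The Fasn window held CCAAT 90, 62 and 59 bases before the start. The Acly window held GGGCGG 117, 88, 76 and 27 bases before it. In the Elovl5 window the E-box lay 161 bases and CCAAT lay 71 and 17 bases before the start. CCAAT was found in 33.8% of all 32851 windows of the table and in 6 of the 11 windows of these genes, which belong to 5 of the 8 genes. GGGCGG was found in 32.7% of all windows and in 4 of the 11, which belong to 3 of the 8 genes. CACGTG was found in 6.02% of all windows and in 1 of the 11, that of Elovl5. TCACNCCAC occurred in 1.05% of all windows and in 0 of the 11 windows of these genes. The other genes lie, in GRCm38, at Acaca (chr11:84129672-84401651, plus strand), Scd1 (chr19:44394455-44407879, minus strand), Scd2 (chr19:44293674-44306864, plus strand), Elovl6 (chr3:129532355-129638495, plus strand), Me1 (chr9:86581371-86695953, minus strand), Srebf1 (chr11:60199089-60222581, minus strand) and Thrsp (chr7:97412938-97417730, minus strand). Scd1 and Scd2 are neighbours on chromosome 19. The count files name the genes by Ensembl identifiers, Fasn ENSMUSG00000025153, Acaca ENSMUSG00000020532, Acly ENSMUSG00000020917, Scd1 ENSMUSG00000037071, Scd2 ENSMUSG00000025203, Elovl5 ENSMUSG00000032349, Elovl6 ENSMUSG00000041220, Me1 ENSMUSG00000032418, Srebf1 ENSMUSG00000020538, Thrsp ENSMUSG00000035686. A match describes letters and not a site that was measured.

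Ctsd transcripts were the check of the genotypes. Levels are given as CPM, counts per 1000000 of a library size that was adjusted by its TMM scaling factor. In control tumors Ctsd stood at 1860.2, 2617, 1781 and 2532 CPM, and in MMTV-cre;Ctsd-/- tumors at 797, 360.2, 1295 and 1233 CPM. The cells had 1267 to 4199 CPM when Ctsd+/+ and 114 to 192 CPM when Ctsd-/-. Both materials matched their labels. A tumor library held between 49725437 and 64291587 counts and a cell library between 33622831 and 40239762, and both materials were scaled and tested separately. MMTV-cre;Ctsd-/- tumors 3 and 4 stood apart in several of the genes below. In cells, the 1% FCS Ctsd+/+ group stood apart in its markers. Its 7 luminal epithelial markers summed to 958 to 1795 CPM, against 8105 to 10895 CPM in 1% FCS Ctsd-/- cells and 4966 to 6873 CPM in both 1% FCS LT groups. Its 7 fibroblast markers summed to 1178 to 3309.6 CPM, against 3.05 to 99.8 CPM in the other 9 cell samples. Col1a1, Pdgfrb and Col3a1 carried this sum, with means of 1437, 468 and 107 CPM in 1% FCS Ctsd+/+ cells. The collagen Col1a2, Dcn and Lum had means of only 2.27, 0.742 and 0 CPM there. Adipocyte markers other than Lipe were at or near 0 in cells: Plin1 had 0 counts in all 12 samples, and Adipoq did not exceed 0.0266 CPM. Lipe had group means of 8.75 to 29.2 CPM in cells, against 34.8 CPM in control tumors, and made up most of the sum of the list. The whole list of 10 adipocyte markers summed to 7.60 to 35.3 CPM, with 3 to 8 of its genes at 0 counts in a sample.

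Levels between genes were compared per length, as CPM per kilobase of exon. Per kilobase, control tumors had the most Thrsp (404 ± 210, SD, n = 4 here and in the other tumor levels) and Scd1 (208 ± 53.5). Fasn stood at 18.3 ± 6.40 on this scale, and Acaca had the lowest level of the 10 genes, 2.23 ± 0.845. In MMTV-cre;Ctsd-/- tumors Scd1 stood at 1429 ± 1203, Thrsp at 852 ± 427 and Fasn at 217 ± 184 per kilobase, with an SD close to the mean for Scd1 and Fasn. Cells had a different order. Per kilobase Scd2, the desaturase that many tissues outside liver and fat use, was the highest in all 4 cell groups, from 484 ± 176 in 1% FCS LT Ctsd+/+ cells to 770 ± 62.4 in 1% FCS LT Ctsd-/- cells (SD, n = 3). Next were Fasn, with group means of 170 to 205 per kilobase, Acly, with 119 to 200, and Scd1, with 73.8 to 163. In 3 of these 4 groups Fasn and Acly differed by less than the larger of their SDs; the exception was 1% FCS LT Ctsd+/+ cells. Thrsp, at 437 CPM or more in every tumor, had 0 to 8 counts in the 12 cell samples, and it was the 1 gene of the 10 that was too low to be tested in cells.

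**Figure D1:**
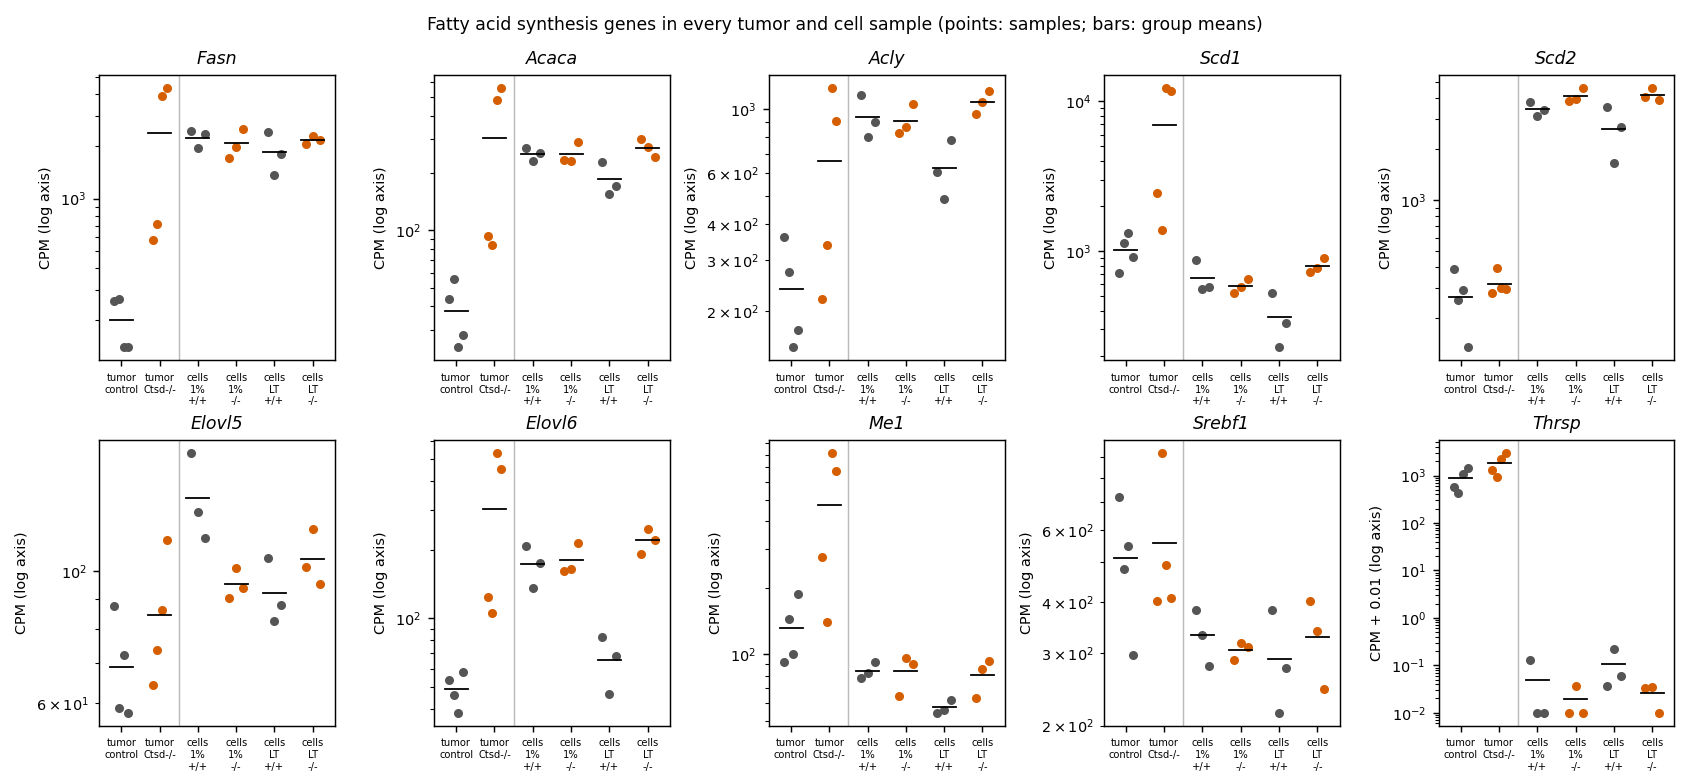
CPM (log axis) of each of the 10 genes in every sample, with the 6 groups on the x axis, tumors to the left of the grey line and cells to the right of it, Ctsd-/- samples in orange; points are samples and bars are group means. For Fasn, MMTV-cre;Ctsd-/- tumors 3 and 4 stand at 3877 and 4354 CPM and the control tumors at 139.6 to 264 CPM, and Thrsp is at 0 to 0.213 CPM in cells (0.01 was added to its values for the axis).

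In tumors, transcripts of 7 of the 10 genes were higher in MMTV-cre;Ctsd-/- than in control mice, 0 were lower, and the values of the other 3, Scd2, Elovl5 and Srebf1, did not pass the test. Fasn showed the greatest change of the 10 in the edgeR fit of all 8 tumors. A gene was counted as changed at an unadjusted p below 0.1, the study's threshold for tumors, in edgeR's quasi-likelihood test. Of all 18617 genes tested, 8.44% were higher and 8.27% lower by this rule. At an adjusted p below 0.05 the test called 0 of the 10 genes and 0.00537% of all genes in either direction, while 7 of the 10 had an unadjusted p below 0.05. At that adjusted threshold DESeq2 called 5 of the 10, Fasn, Acaca, Scd1, Elovl6 and Me1, beside 1.43% of all genes, and limma-voom 0, beside 0.0107%. All 10 log2 fold changes were positive in this fit, with a median of 1.66, against 0.00073 over all genes tested. Each sample description holds an LR number, which is read here, by inference, as a sequencing run. The 4 tumors of each genotype share a number of their own, so that genotype and sequencing run cannot be told apart. In bulk tissue fewer cells of a type and less RNA per cell cannot be told apart either.

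The enzymes of palmitate synthesis came first. Fasn had 259, 264, 141 and 139.6 CPM in the 4 control tumors and 578, 711, 3877 and 4354 CPM in the 4 MMTV-cre;Ctsd-/- tumors. Every MMTV-cre;Ctsd-/- tumor lay above every control tumor, and tumors 3 and 4 lay far above tumors 1 and 2. Its log2 fold change was 3.57 ± 0.69 (SE, adjusted p = 0.292 by edgeR). Acaca, the carboxylase, had 43.6, 55.7, 24.4 and 28.4 CPM in control tumors and 93.5, 83.4, 485 and 561 CPM in MMTV-cre;Ctsd-/- tumors. The groups did not overlap, tumors 3 and 4 again stood above the rest, and the log2 fold change was 3.01 ± 0.65 (adjusted p = 0.292 by edgeR). Acly had 362, 274, 150.2 and 172 CPM against 221, 339, 1187 and 908 CPM. Here tumors 1 and 2 lay within the range of the controls and only tumors 3 and 4 above it. The log2 fold change of Acly was 1.47 ± 0.52 (adjusted p = 0.528 by edgeR). Me1 had 91.9, 145, 100.5 and 188 CPM in controls and 275, 139, 816 and 672 CPM in MMTV-cre;Ctsd-/- tumors, with 3 of these 4 above every control. Its log2 fold change was 1.86 ± 0.51 (adjusted p = 0.416 by edgeR).

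Of the elongases and desaturases, Scd1 and Elovl6 were higher in MMTV-cre;Ctsd-/- tumors. Scd1 had 716, 1130.1, 1319 and 910.2 CPM in control and 2441, 1386, 12352 and 11784 CPM in MMTV-cre;Ctsd-/- tumors. The groups did not overlap, although tumor 2 lay just above the highest control. The log2 fold change of Scd1 was 2.78 ± 0.66 (adjusted p = 0.366 by edgeR). Elovl6 had 53.7, 46.0, 38.4 and 57.8 CPM against 124, 106, 534 and 451 CPM, again without overlap, with a log2 fold change of 2.63 ± 0.52 (adjusted p = 0.292 by edgeR). Thus Fasn, Acaca, Scd1 and Elovl6 had groups that did not overlap, and the share of all genes without overlap was not counted. The other desaturase and the other elongase did not pass. Scd2 had 391, 255, 294 and 134 CPM in controls and 281, 394, 303 and 297 CPM in MMTV-cre;Ctsd-/- tumors, and the log2 fold change was 0.25 ± 0.30 (adjusted p = 0.786 by edgeR). Elovl5 had 87.4, 58.9, 72.4 and 57.8 CPM against 64.4, 73.8, 86.1 and 113 CPM (log2 fold change 0.29 ± 0.23, adjusted p = 0.69 by edgeR). For both genes the 2 groups overlapped. Scd1 and Scd2 are paralogs, and reads that map to both are not counted for either, so that their levels are less certain.

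Of the regulators, Thrsp passed the test and Srebf1 did not. Srebf1 had 721, 482, 548 and 297 CPM in controls and 402, 924, 493 and 409.6 CPM in MMTV-cre;Ctsd-/- tumors, with overlapping groups and a log2 fold change of 0.12 ± 0.35 (adjusted p = 0.915 by edgeR). Tumors 3 and 4, which had the most Fasn, lay within the range of the controls for Srebf1. The tumor counts ignored strand, and 109 bases of Srebf1 exon overlap Rai1 on the other strand. Thrsp had 579, 437, 1098 and 1425 CPM in controls and 1281, 952, 2206 and 3019.7 CPM in MMTV-cre;Ctsd-/- tumors. Its groups overlapped, and the log2 fold change was 1.08 ± 0.46 (adjusted p = 0.555 by edgeR).

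Tumors 3 and 4 carried much of the size of these differences. The mean of tumors 3 and 4 was 20.5 times the mean of the controls for Fasn, 13.8 times for Acaca, 11.8 times for Scd1 and 10.1 times for Elovl6. The mean of tumors 1 and 2 was 3.21, 2.33, 1.88 and 2.35 times the control mean for the same genes. With tumors 3 and 4 left out, a fit added after the data were seen, 4 of the 10 genes passed the test in place of 7. Over all genes the share that passed, in either direction, was 5.57% in this fit and 16.7% with all 8 tumors. These were Fasn (log2 fold change 1.69 ± 0.36), Acaca (1.22 ± 0.35), Elovl6 (1.24 ± 0.26) and Scd1 (0.91 ± 0.36). Acly (0.23 ± 0.41), Me1 (0.66 ± 0.39) and Thrsp (0.34 ± 0.48) no longer passed. Without tumor 4 alone, Thrsp was the 1 gene of the 7 that was lost, with a log2 fold change of 0.74. Over all genes 9.43% passed without this tumor.

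Markers of fat moved with the same tumors. Adipoq, which encodes the adipocyte hormone adiponectin, had 42.8, 136, 24.0 and 231 CPM in the control tumors and 398, 158, 732 and 1080.2 CPM in the MMTV-cre;Ctsd-/- tumors. Cidec, a protein of the lipid droplet, had 64.2, 175, 31.4 and 291 CPM against 419, 246, 1109 and 2409.7 CPM, and Plin1, the perilipin of adipocytes, had 1.66, 5.20, 1.03 and 7.86 CPM against 11.4, 7.07, 48.2 and 69.5 CPM. In all 3 markers tumors 3 and 4 were the highest of the 8. All 10 adipocyte markers passed the test as higher, with a median log2 fold change of 2.79, and their summed level ranged from 557 to 5734 CPM in controls and from 3524 to 24611 CPM in MMTV-cre;Ctsd-/- tumors. Ucp1, the uncoupling protein of brown fat, had 0 to 0.185 CPM in controls and 0.486, 10.9, 8.30 and 5.34 CPM in MMTV-cre;Ctsd-/- tumors, and 2 of 4 tested brown fat markers were higher, with the list of 5 summing to 11.5 to 42.3 CPM against 24.6 to 162 CPM. Endothelial markers moved too, with 4 of 5 higher and a summed level of 34.3 to 87.4 CPM in controls and of 56.2, 86.1, 279 and 221 CPM in the 4 MMTV-cre;Ctsd-/- tumors, and their part in the result was not tested. None of the 7 luminal epithelial markers, the 8 milk and alveolar markers or the 7 macrophage markers passed the test in edgeR. Of the other lists, 1 of 7 fibroblast markers was higher and 1 of 5 skeletal muscle markers lower. Luminal markers summed to 5791 to 9469.7 CPM in controls and 5379.5 to 6832 CPM in MMTV-cre;Ctsd-/- tumors.

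With the mean log2 CPM of the 10 adipocyte markers as a covariate, 1 of the 10 genes passed the test in place of 7, and it was none of the 7. Over all genes 6.88% passed in this fit, in either direction, against 16.7% without the covariate. The log2 fold change of Fasn was then 1.30 ± 0.89, that of Acaca 0.64 ± 0.74, that of Scd1 0.81 ± 1.08, that of Elovl6 0.89 ± 0.64 and that of Me1 0.04 ± 0.53. Srebf1 passed, at 0.89 ± 0.45. With Adipoq alone as a covariate 2 genes passed, Scd2 at 0.98 ± 0.40 and Srebf1 at 0.98 ± 0.38, and Fasn stood at 1.93 ± 1.12. The share of all genes that passed was then 13.1%. Since the adipocyte markers differed between the genotypes, these fits have wider errors, and a p above the threshold does not show that the values were equal. With the luminal or with the milk and alveolar markers as a covariate, 7 genes passed, beside 8.22% and 15.4% of all genes.

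**Figure D2:**
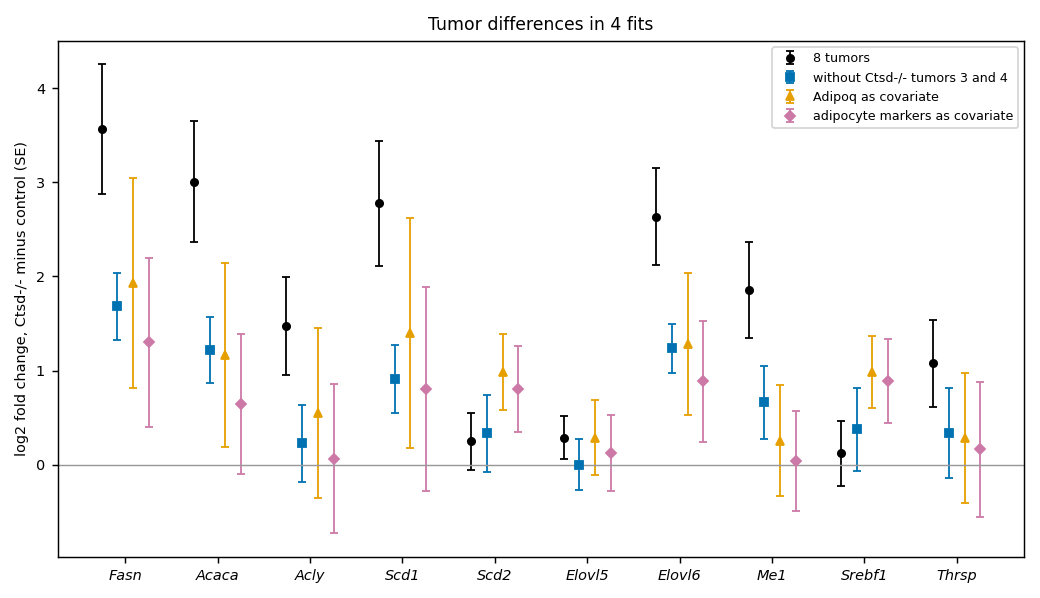
Log2 fold change between MMTV-cre;Ctsd-/- and control tumors (y axis; bars are SE) for each of the 10 genes in 4 edgeR fits: all 8 tumors, without MMTV-cre;Ctsd-/- tumors 3 and 4, with Adipoq as a covariate and with the adipocyte markers as a covariate. Fasn goes from 3.57 to 1.69, 1.93 and 1.30, and Srebf1 from 0.12 to 0.38, 0.98 and 0.89.

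Each gene was also set against Adipoq tumor by tumor. Tumors were taken as 2 clusters where the widest gap between neighbouring log2 CPM was wider than the range on either side of it and at least 2 tumors lay on each side. By this rule the 8 tumors split for Fasn, Acaca, Acly, Scd1 and Elovl6, with MMTV-cre;Ctsd-/- tumors 3 and 4 apart from the other 6, so that no correlation over all 8 is given for them. Among the other 6 tumors, which is the cluster large enough, r with log2 Adipoq was 0.63 for Acaca, 0.49 for Scd1 and 0.066 for Acly, and none of the 3 passed adjustment (exact permutation of pairings, two-sided). Fasn and Elovl6 split again within these 6, so that no r is given for them. The remaining 5 genes had no such split over the 8 tumors, although tumors 3 and 4 also had the most Me1, 816 and 672 CPM, with 275 CPM as the next value. Me1 followed Adipoq, with Pearson's r = 0.918 (exact permutation p = 0.00216, adjusted p = 0.0216 over the 10 relations) and Spearman's rho = 0.929 (adjusted p = 0.0112). Without the 2 tumors farthest from the median of Adipoq, control tumor 3 and MMTV-cre;Ctsd-/- tumor 4, r was 0.925. Without tumors 3 and 4, r was 0.928 (exact permutation p = 0.0111, adjusted p = 0.111), which did not pass. Within the genotypes, and so within the sequencing runs, r was 0.827 (exact permutation p = 0.00868, adjusted p = 0.0868), which did not pass. Without control tumor 2, r was 0.921 with an adjusted p of 0.062 (exact permutation), which did not pass.

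Thrsp stood at r = 0.707 (exact permutation p = 0.0492, adjusted p = 0.082) and rho = 0.81 (adjusted p = 0.0544), at r = 0.828 without the 2 farthest tumors, and at r = 0.457 (adjusted p = 0.365) within the genotypes, so that the relation did not pass adjustment with all 8 tumors. Without control tumor 3 it passed, at r = 0.889 (exact permutation, adjusted p = 0.0317). Srebf1 ran the other way without passing, with r = -0.45 (exact permutation p = 0.265, adjusted p = 0.332), rho = -0.524 (adjusted p = 0.246), r = -0.473 without the 2 farthest tumors and r = -0.80 (adjusted p = 0.126) within the genotypes. Elovl5 had r = 0.319 (exact permutation p = 0.441, adjusted p = 0.49) and rho = 0.262 (adjusted p = 0.596), with r = -0.115 without the 2 farthest tumors and -0.028 within the genotypes. Scd2 had r = -0.18 (exact permutation p = 0.683, adjusted p = 0.683) and rho = -0.0238 (adjusted p = 0.977), with r = -0.29 without the 2 farthest tumors and -0.741 (adjusted p = 0.126) within the genotypes.

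**Figure D3:**
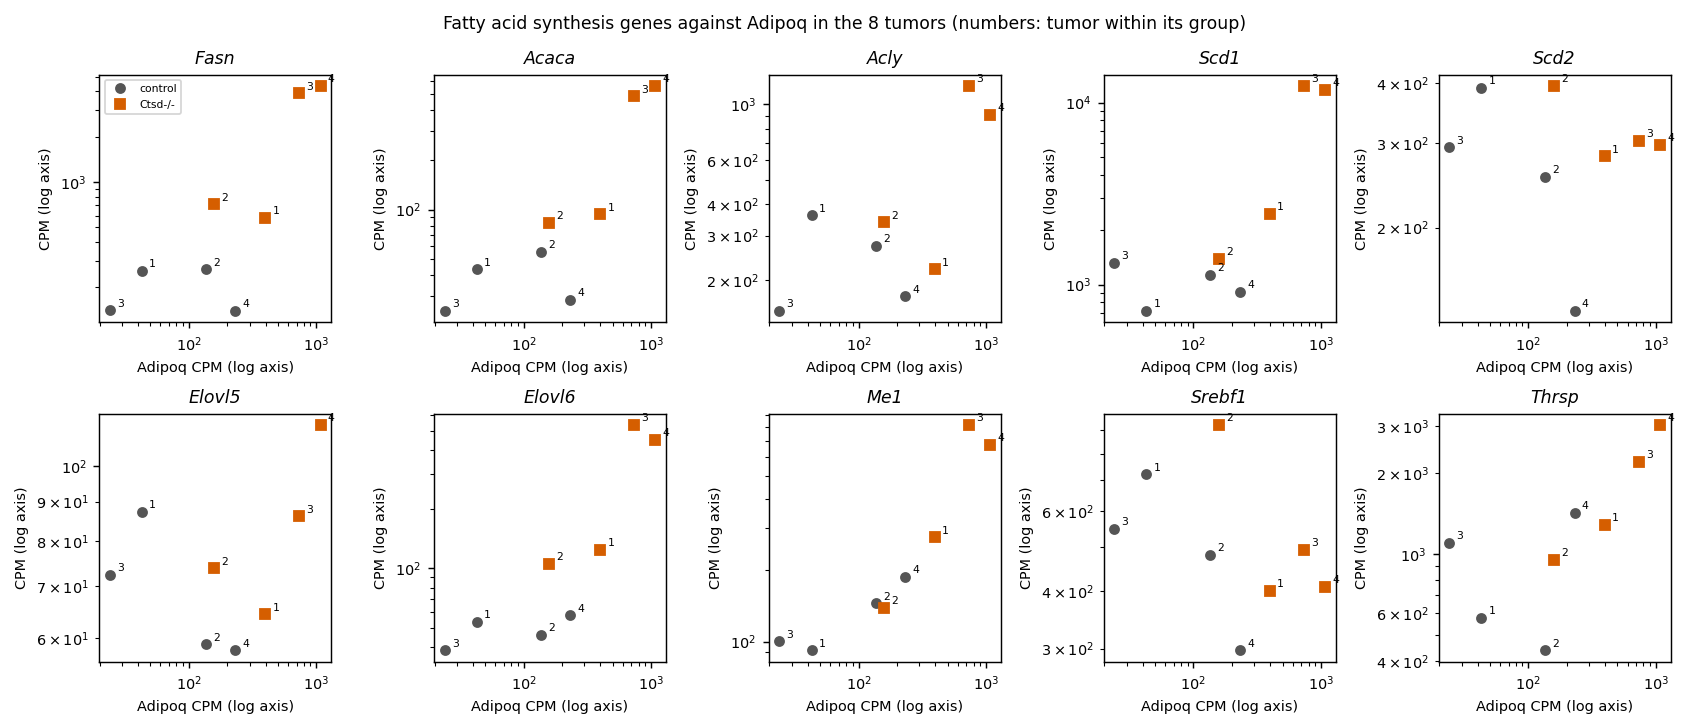
CPM of each of the 10 genes (y axis, log) against CPM of Adipoq (x axis, log) in the 4 control tumors (grey circles) and the 4 MMTV-cre;Ctsd-/- tumors (orange squares), numbered within their group. For Fasn, Acaca, Acly, Scd1 and Elovl6 tumors 3 and 4 lie apart from the other 6. For Me1 they are also the highest, at 816 and 672 CPM, and the other 6 tumors range from 91.9 to 275 CPM.

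Other genes of the pathway were counted by the same rule. Of 11 genes that supply citrate, acetyl-CoA or NADPH, 8 were higher and 0 lower when Ctsd was deleted (median log2 fold change 0.71). They included pyruvate carboxylase (Pcx, 2.95 ± 0.64), the acetyl-CoA synthetase Acss2 (2.44 ± 0.55) and the citrate carrier Slc25a1 (2.16 ± 0.40). Of 6 partners of the synthase and the carboxylase 2 were higher and 0 lower (median 0.06), one of them Acacb, the mitochondrial form of the carboxylase (3.05 ± 0.65). Of 14 genes that activate fatty acids and build triglycerides, 8 were higher and 0 lower (median 1.12), among them Dgat2, which makes triglycerides (3.44 ± 0.71), Acsl1 (2.45 ± 0.58) and Agpat2 (2.44 ± 0.51). Of 7 fatty acid uptake genes 3 were higher, with lipoprotein lipase (Lpl) at 3.01 ± 0.78 and Slc27a1 at 2.66 ± 0.54. Of 13 tested genes of β-oxidation, the opposite process, 7 were higher and 0 lower (median 0.48), for example Cpt2 (1.10 ± 0.33).

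The remaining lists were counted in the same way. Of 14 genes of cholesterol synthesis, which SREBP2 controls and which shares its acetyl-CoA source, 1 was higher and 1 lower (median 0.19). Of the other 15 elongases, desaturases and partners of elongation 3 were higher and 2 lower (median 0.28), with Elovl3, an elongase of skin and brown fat, at 3.29 ± 1.26 and Hacd3 at -0.49 ± 0.21. Of 15 genes that control SREBP1 or fatty acid synthesis 7 were higher (median 0.09), with Mlxipl, which encodes the carbohydrate response factor ChREBP, at 2.42 ± 0.56. All values are log2 fold changes with SE, the call was the unadjusted p below 0.1, and no list as a whole was tested.

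In cells that had been in 1% FCS for 10 days, the genotypes differed in 1 of the 9 genes tested. Elovl5 was lower in Ctsd-/- cells, and the values of the enzymes of palmitate synthesis overlapped between the genotypes. Elovl5 stood at 158, 126 and 114 CPM when Ctsd was present and at 90.4, 101 and 93.6 CPM when it was not. The groups did not overlap, and the log2 fold change was -0.48 ± 0.14 (adjusted p = 0.0132 by edgeR over 15178 genes). Without Ctsd+/+ replicate 1, the highest, it was -0.33 (adjusted p = 0.0577 by edgeR) and no longer passed. At an adjusted p below 0.05, 23.5% of all genes tested were higher and 25.1% lower in Ctsd-/- cells, and 25.0% also changed by more than 1 on the log2 scale, which 0 of the 9 genes did. Fasn stood at 2435, 1944 and 2359.6 CPM against 1723, 1993 and 2514 CPM, with a log2 fold change of -0.11 ± 0.20. Scd2 had 3817, 3162 and 3405 CPM against 3875, 3956 and 4633 CPM, without overlap but with a log2 fold change of 0.26 ± 0.23 (adjusted p = 0.364 by edgeR). The other 6 genes lay between -0.19 (Scd1) and 0.06 (Elovl6). In this comparison 7 of 7 luminal markers and 2 of 2 tested adipocyte markers, Lipe and Fabp4, were higher in Ctsd-/- cells. Of the fibroblast markers 5 of 5 tested were lower, and the part of all these markers in the result was not tested.

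After 12 weeks in 1% FCS, 6 of the 9 genes were higher in Ctsd-/- than in Ctsd+/+ cells and 0 were lower. These were Acaca, Acly, Scd1, Scd2, Elovl6 and Me1. Their groups did not overlap, and the share of all genes without overlap was not counted. Elovl6 and Scd1 changed by more than 1 on the log2 scale, which is 2 of the 9 genes. Of all genes tested 20.5% were higher and 19.1% lower, and 19.4% passed with a log2 fold change beyond 1 in either direction. The median log2 fold change of the 9 genes was 0.55, against 0.01 over all genes tested. Luminal markers in these cells summed to 4966 to 5349 CPM when Ctsd+/+ and 5899 to 6873 CPM when Ctsd-/-, with 2 of 7 higher and 1 lower, and fibroblast markers summed to 3.05 to 8.37 CPM and 9.51 to 99.8 CPM, with 2 of 5 tested higher, and their part in the result was not tested.

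Elovl6, which lengthens palmitate, showed the largest difference of the 9 genes in this comparison. The Ctsd+/+ samples stood at 82.8, 46.6 and 67.9 CPM, and the Ctsd-/- samples at 191, 248 and 221 CPM. The former lay below all other cell samples, and the log2 fold change was 1.74 ± 0.22 (adjusted p = 8.01e-05 by edgeR). Scd1 had 526, 227 and 330.1 CPM against 723, 771 and 898 CPM, a log2 fold change of 1.14 ± 0.27 (adjusted p = 0.00533 by edgeR). Acly had 606, 489 and 783 CPM against 965, 1059 and 1150.3 CPM, with 0.76 ± 0.18 (adjusted p = 0.0062 by edgeR). Acaca had 229.6, 155 and 171 CPM against 301, 272 and 243 CPM, with 0.55 ± 0.15 (adjusted p = 0.0136 by edgeR). In all 4 genes the lowest Ctsd-/- sample lay above the highest Ctsd+/+ sample.

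Scd2 and Me1 passed by less. Scd2 had 3568, 1647 and 2715 CPM against 4096, 4589.8 and 3935 CPM (log2 fold change 0.67 ± 0.23, adjusted p = 0.0362 by edgeR). Me1 had 54.3, 55.7 and 62.2 CPM against 63.2, 85.8 and 92.8 CPM (0.49 ± 0.17, adjusted p = 0.0351 by edgeR), with 1 Ctsd-/- sample just above the highest Ctsd+/+ sample. Replicate 2 of the Ctsd+/+ cells was the lowest of its group in Fasn, Acaca, Acly, Scd1, Scd2, Elovl5, Elovl6 and Srebf1. Without it 3 genes passed, Acly, Scd1 and Elovl6, beside 31.1% of all genes in either direction. The remaining 3 genes did not pass in the fit of all samples. Fasn had 2412, 1377 and 1804 CPM against 2065, 2281 and 2178 CPM (0.22 ± 0.20), Elovl5 had 105, 82.6 and 87.8 CPM against 102, 118 and 95.3 CPM (0.19 ± 0.14), and Srebf1 had 382, 215 and 276 CPM against 403, 339.9 and 246 CPM (0.18 ± 0.22).

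Time in culture was compared within each genotype. In Ctsd+/+ cells 6 of the 9 genes fell between 10 days and 12 weeks and 0 rose. These were Acaca, Acly, Scd1, Elovl5, Elovl6 and Me1, all 9 log2 fold changes were negative, and their median was -0.53, against 0.0045 over all genes tested. Elovl6 decreased from 207, 136 and 175 CPM to the values given above, a log2 fold change of -1.39 ± 0.22 (adjusted p = 0.000284 by edgeR), and its mean at 12 weeks was 0.381 times that at 10 days. Scd1 decreased from 870.4, 555 and 572 CPM (-0.88 ± 0.27, adjusted p = 0.0175 by edgeR) and Acly from 1114, 804 and 902 CPM (-0.59 ± 0.18, adjusted p = 0.0197 by edgeR). The groups did not overlap in any of the 6 genes, and the share of all genes without overlap was not counted. Of all genes tested 23.0% rose and 23.4% fell, and 23.4% changed by more than 1 on the log2 scale in either direction, as did 1 of the 9 genes, Elovl6. Luminal markers rose in 7 of 7 and fibroblast markers fell in 4 of 5 tested in the same comparison, and their part in the result was not tested. Without 1% FCS replicate 1 the number of genes that passed was 3, Elovl5, Elovl6 and Me1, beside 42.3% of all genes in either direction. With 1% FCS LT replicate 2 left out it was 2, Elovl5 and Elovl6, beside 38.6%.

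In Ctsd-/- cells 0 of the 9 genes changed over the same time by edgeR at an adjusted p below 0.05, 0 had an unadjusted p below 0.05, and DESeq2 and limma-voom called 0 as well. Here 1.57% of all genes tested rose, 0.810% fell and 1.48% changed by more than 1 on the log2 scale. The log2 fold changes of the 9 genes lay between -0.05 for Me1 and 0.45 for Scd1. Scd1 had 524, 573 and 650.3 CPM at 10 days and 723, 771 and 898 CPM at 12 weeks, without overlap (0.45 ± 0.27, adjusted p = 0.408 by edgeR). Elovl6 had 162, 165 and 214 CPM at 10 days and stood at 0.28 ± 0.21, and Fasn stood at 0.07 ± 0.20.

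**Figure D4:**
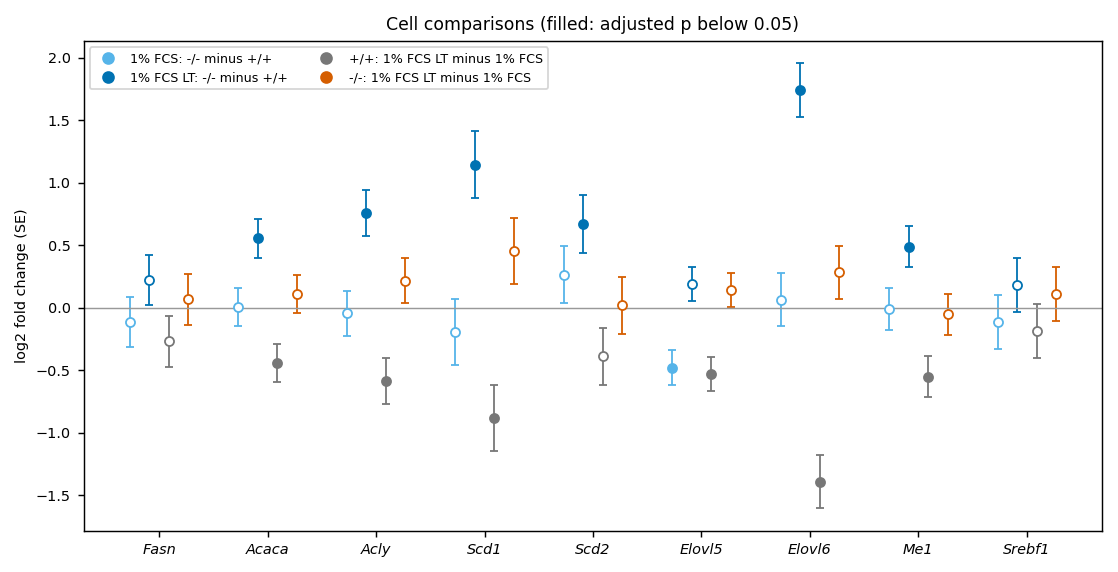
Log2 fold changes (y axis; bars are SE) of the 9 genes tested in cells in 4 comparisons, Ctsd-/- minus Ctsd+/+ in 1% FCS (light blue) and in 1% FCS LT (dark blue), and 1% FCS LT minus 1% FCS in Ctsd+/+ (grey) and in Ctsd-/- cells (orange); filled points have an adjusted p below 0.05. In 1% FCS LT Elovl6 stands at 1.74 and Scd1 at 1.14, and in Ctsd+/+ cells over time at -1.39 and -0.88.

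The difference between the genotype effects at 12 weeks and at 10 days was tested as an interaction over the 12 samples. It passed for 4 of the 9 genes, all with a more positive difference at 12 weeks. They were Elovl6 (1.68 ± 0.30, adjusted p = 0.00153), Scd1 (1.34 ± 0.38, adjusted p = 0.0195), Acly (0.80 ± 0.26, adjusted p = 0.0341) and Elovl5 (0.67 ± 0.20, adjusted p = 0.0225, all by edgeR). Of all genes tested 16.1% were higher and 14.1% lower, and 19.1% also passed a log2 value of 1 in either direction, as did Elovl6 and Scd1. Acaca (0.55 ± 0.22, adjusted p = 0.0765 by edgeR), Me1 (0.50 ± 0.24), Scd2 (0.41 ± 0.32), Fasn (0.34 ± 0.29) and Srebf1 (0.30 ± 0.31) did not pass. The interaction also passed for 7 of 7 luminal markers, all lower, and for 3 of 5 tested fibroblast markers, all higher, and their part in the result was not tested. Without 1% FCS LT Ctsd+/+ replicate 2, and likewise without 1% FCS LT Ctsd-/- replicate 2, 2 genes passed, Scd1 and Elovl6. Over all genes 24.5% and 23.4% passed in these fits, in either direction. The comparisons share samples: the 1% FCS LT Ctsd+/+ samples enter the genotype comparison at 12 weeks, the comparison over time in Ctsd+/+ cells and the interaction. In the run that held 8 of the 12 cell samples, 2 of each group, 2 genes passed the interaction (Acly and Elovl6) and 4 the genotype comparison in 1% FCS LT (Acaca, Acly, Scd1 and Elovl6). In the same run 3 passed the comparison over time in Ctsd+/+ cells (Acly, Elovl6 and Me1) and 0 the genotype comparison in 1% FCS. Of all genes 27.7% passed the interaction in this run and 37.3% the genotype comparison in 1% FCS LT. The share was 43.0% over time in Ctsd+/+ cells and 44.7% in 1% FCS, all in either direction.

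The neighbouring genes in cells did not share 1 direction. In 1% FCS LT the acetyl-CoA synthetase Acss2 (1.37 ± 0.33) was higher in Ctsd-/- than in Ctsd+/+ cells. Pyruvate carboxylase (Pcx) was lower in Ctsd-/- than in Ctsd+/+ cells by 2.00 ± 0.19, and the dicarboxylate carrier Slc25a10 by 1.23 ± 0.17. Among the 11 supply genes 4 were higher and 5 lower. Of 13 tested elongases, desaturases and partners 5 were higher and 3 lower, with the Δ5-desaturase Fads1 at 1.16 ± 0.18 and the elongase Elovl1 at -1.40 ± 0.12. Of 5 tested partners of the synthase and the carboxylase 2 were higher and 1 lower, with Acacb at 1.60 ± 0.27. Of 14 genes of cholesterol synthesis 4 were higher, among them Mvd (0.82 ± 0.29) and Lss (0.77 ± 0.26). Of the 15 control genes 4 were higher and 0 lower, among them Insig1, which holds SREBP in the endoplasmic reticulum (0.98 ± 0.25), and the liver X receptor gene Nr1h3 (3.46 ± 0.63). Triglyceride genes were 5 higher and 1 lower of 14, and genes of β-oxidation 3 higher and 5 lower of 14, with Cpt1a at -2.11 ± 0.36.

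Across the 12 cell samples the genes whose log2 CPM were most like that of Scd1 were Acat2 (Pearson's r = 0.947), Fads2 (0.93), Elovl6 (0.925), Cnih4 (0.912) and Fads1 (0.911). Those most like Fasn were Idi1 (0.838), Aacs (0.828), Gm13502 (0.813), Hmgcs1 (0.812) and Fads2 (0.808). Across the 8 tumors Acaca (0.994), Crat (0.989), Mgll (0.987), Dlat (0.985) and Slc25a1 (0.983) were most like Fasn. These are descriptions over samples that share groups, runs and depth, and in tumors they include the 2 tumors that stood apart.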

How the data were processed

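RNA was sequenced from 8 tumors and 12 cell samples. The authors trimmed reads with Trimmomatic, mapped them to the mouse GRCm38/mm10 assembly with STAR and deposited raw read counts per gene for each sample. Versions and the annotation release are not given in the sources used here. Counts regardless of strand (column 2) were used for tumors and opposite-strand counts (column 4) for cells. Of the counts on either strand, 52.8 to 53.7% were on the opposite strand in tumors and 97.1 to 97.3% in cells. The first 4 lines of each file, reads not assigned to a gene, were left out. Symbols came from GENCODE M21, which held 45143 of 45706 identifiers and all 159 listed genes, and promoters from RefSeq.

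Genes were kept by filterByExpr, scaled by TMM and tested with edgeR 4.0.16 (R 4.3.3) by the quasi-likelihood F-test with Benjamini-Hochberg adjustment, tumors alone (18617 genes) and the 12 cell samples together (15178 genes). SE is the absolute log2 fold change divided by the square root of F. Log2 CPM used a prior count of 2. The study's own test used limma; limma-voom (3.58.1) and DESeq2 (1.42.0), other scalings and filters, strand, batches, markers as covariates and left-out samples were tried as alternatives. The rule for clusters of tumors was set after the values were seen. The 10 genes and all gene lists were chosen with earlier results of these data known. Beside the 10 genes, Ctsd and 4 fat markers, genes named from a list were among the 3 with the largest absolute log2 fold change of those called whose groups did not overlap. On simulated data for tumors (18344 genes) the test recovered 70% of 100 genes changed by 1 and 98% of those changed by 2 on the log2 scale and called 9.23% of unchanged genes. For 1% FCS LT cells (14851 genes) it recovered 60% and 96% and called 0.0341%. The simulation gave all genes of a material the same dispersion and had no samples that stood apart within a group. Its rates therefore do not cover genes that vary more than this, such as those in which tumors 3 and 4 stood apart. Replicates of a group differed by more than sampling noise in every pair (chi-square per gene 15.4 or more). The result of 1 listed gene is not reported here.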

Additional observations from a re-analysis of the deposited data

Results flagged for a closer look

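The difference of Ctsd-/- from Ctsd+/+ cells was more positive for 4 genes after 12 weeks than after 10 days in 1% FCS by the test of the difference itself. The interaction stood at 0.80 for Acly, 1.34 for Scd1, 0.67 for Elovl5 and 1.68 for Elovl6 on the log2 scale. For Elovl5 the genotype difference turned from -0.48 in 1% FCS to 0.19 in 1% FCS LT, and the second value did not pass the test. In 30 sets of 4 tumors, looked at gene by gene, no single value stood apart by Dixon's criterion, which chance meets in about 1 in 20 sets. The criterion looks for a single value, so it cannot flag a pair of tumors that stand apart together.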

How the results depend on the processing

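Of 24 changes called among the 10 genes, 0 reversed under 456 alternative values and 69 lost the call. Elovl6 kept its call in 1% FCS LT (1.54 to 1.94), over time in Ctsd+/+ cells (-1.59 to -1.19) and in the interaction (1.47 to 1.88) under every alternative run. In tumors the number of genes called was 1 with the adipocyte markers and 2 with Adipoq as a covariate, 4 without MMTV-cre;Ctsd-/- tumors 3 and 4 (chosen after seeing the data), and 6 to 7 when each tumor was left out in turn. Over all genes the share called in these fits was 6.88%, 13.1%, 5.57% and 9.43% to 23.4%. With luminal markers as a covariate Scd2 stood at -0.11 and Srebf1 at -0.12. In the run of 8 cell samples, 0 genes passed in 1% FCS, 3 over time in Ctsd+/+ cells and 2 in the interaction. Beside them 44.7%, 43.0% and 27.7% of all genes passed in this run. There the 1% FCS values were 0.067 for Fasn, 0.16 for Acly, 0.12 for Scd1, 0.097 for Me1 and 0.040 for Srebf1, and Fasn over time in Ctsd-/- cells was -0.051. Over time in Ctsd+/+ cells 3 genes passed when only these 2 groups were fitted, beside 41.1% of all genes. In 1% FCS Acaca was -0.013 with DESeq2 size factors and with DESeq2 and -0.022 with a minimum of 10 counts, and Me1 was 0.0040 with counts regardless of strand. The cause of these changes was not tested.

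When each sample was left out in turn, the number called was 0 to 1 in 1% FCS, 3 to 5 in 1% FCS LT, 2 to 6 over time in Ctsd+/+ cells, 0 to 0 in Ctsd-/- cells and 2 to 5 in the interaction. Values that crossed 0 ranged from -0.24 to 0.33 for Srebf1 in tumors. In 1% FCS they ranged from -0.11 to 0.064 for Acaca, -0.15 to 0.095 for Acly, -0.27 to 0.0093 for Fasn, -0.31 to 0.049 for Scd1, -0.079 to 0.22 for Elovl6 and -0.12 to 0.15 for Me1. Over time in Ctsd-/- cells they ranged from -0.051 to 0.23 for Fasn, -0.048 to 0.10 for Scd2, -0.21 to 0.096 for Me1 and -0.061 to 0.28 for Srebf1. Against Adipoq, r ranged from -0.27 to 0.00018 for Scd2 and from -0.13 to 0.52 for Elovl5, which stood at -0.63 in the 6 tumors. The number of genes that followed Adipoq after adjustment was 0 to 2 when each tumor was left out and 0 in the 6 tumors. Only the 5 genes without 2 clusters over the 8 tumors entered this count, so Fasn, Acaca, Acly, Scd1 and Elovl6 were not part of it.

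Replicate numbers were not taken as pairs. Replicate 1 of both 1% FCS groups had a run of its own, and replicate 3 of both 1% FCS LT groups had another. Each of these runs thus held samples of only 1 culture time. The run as a covariate gave 1, 6, 4, 0 and 5 calls in the 5 cell comparisons. The share of all genes called was then 54.3%, 45.6%, 46.5%, 7.89% and 36.9%. Deviations of same-numbered samples correlated at -0.303 to -0.00755 in tumors, 0.09997 to 0.362 in 1% FCS (mean of other pairs -0.126), 0.00181 to 0.119 in 1% FCS LT, -0.143 to -0.0326 over time in Ctsd+/+ cells and 0.0766 to 0.192 in Ctsd-/- cells, and every sample correlated best with its own number only over time in Ctsd-/- cells. With the replicate number as a block 6 genes were called in tumors, where Acly was lost, 1 in 1% FCS, 6 in 1% FCS LT, 6 over time in Ctsd+/+ cells, 0 in Ctsd-/- cells and 5 in the interaction, where Me1 was gained. Over all genes this block gave 9.75% in tumors, 49.3% in 1% FCS and 40.7% in 1% FCS LT. It gave 47.1% over time in Ctsd+/+ cells, 2.62% in Ctsd-/- cells and 31.1% in the interaction. Depth limited only Thrsp in cells, which had 0 to 8 counts in a sample and was not tested.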
